A study of Mus musculus with 18 samples.

Results

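Fragments of the mitochondrial tRNA for arginine, mt-TR, that share the end of its predominant tRNA-derived fragment (tRF) but begin inside the molecule are described here. The predominant fragment of mt-TR starts at nucleotide (nt) 1 and lacks the last 19 nt of the mature tRNA, and its 3′ end is called the site below. The site had been chosen on the abundance of that nt 1 fragment in these same libraries, so that many reads end there is not a result. Members were defined by listed sequences that end exactly at the site and start past nt 1, and 17 of 679 listed sequences met this rule. They held 16142 of 121943 reads, or 13.2%, and 27.5% of the 58619 reads that end at the site. Their starts covered 14 positions, nt 2 to 15, because a sequence is listed only when it is at least 40 nt long. The last start that could be listed was therefore nt 13 for mtDNA C, nt 14 for F and nt 15 for H.

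The study examined whether sequence differences of mt-TR between types of mitochondrial DNA (mtDNA) go with the fragments made from it. Small RNA came from liver of healthy adult females, and each of 6 strains gave 3 libraries. A strain is named by its nuclear genome and then its mtDNA, where C is C57BL/6J, H is C3H/HeN and F is FVB/NJ. CC, HH and FF were wild type, and HC, CH and CF were mitochondrial-nuclear exchange (MNX) mice, made by pronuclear transfer, in which the nucleus of one strain is combined with the mtDNA of another. Each mtDNA type was thus carried by 1 wild-type and 1 MNX strain, 6 libraries in all, and no F nucleus was paired with C or H mtDNA. The labels name no treatment for any group. In the study's methods, the liver RNA was pretreated with a kit that removes some base methylations and corrects the fragment ends. The paper cautions that demethylation may cut the RNA backbone at random, which likely enriches shorter fragments. The part of this step in the start and end profiles was not tested. Intact RNA was pooled before library construction, so the replicates are libraries, the number of animals behind each was not used here, and p-values measure the spread between these libraries, which may be technical.

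Mature tRNAs fold into a cloverleaf with an acceptor stem, a D arm, an anticodon arm and a T arm, and carry a CCA tail that is added after transcription. Cleavage of a tRNA yields tRFs, which are named by the part they retain. A fragment that keeps the first base is a 5′ tRF, and one that lacks both mature ends is an internal tRF, the class to which the members belong. In mitochondria of the mouse, mt-TR delivers arginine for the few proteins encoded by mtDNA, and the length of its T and A runs differs between inbred strains.

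The gene, mt-Tr (ENSMUSG00000064361.1), has a single exon at chrM:9808-9875 on the plus strand of mm10 (GRCm38). Mature mt-TR has 71 nt with C mtDNA, 72 with F and 73 with H. Types differ in a T run, which starts at nt 11 and has 3 bases in C and F and 4 in H, and in the A run that follows it, which has 8 bases in C and 9 in F and H. The site falls after nt 52 of C mtDNA, which is nt 53 of F and nt 54 of H, between positions 9859 and 9860 of chromosome M. By complementarity, the bases at nt 45 to 49 of C can pair with nt 56 to 60 as the T stem, and the site lies between these strands. The mature sequence of each type is shown first, with the bases on either side of the site in capitals.
C mature mt-TR: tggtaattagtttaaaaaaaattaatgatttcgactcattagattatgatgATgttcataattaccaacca
F mature mt-TR: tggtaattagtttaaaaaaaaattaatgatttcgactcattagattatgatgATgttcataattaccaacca
H mature mt-TR: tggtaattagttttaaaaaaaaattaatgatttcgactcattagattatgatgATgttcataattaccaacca

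The members that carried most reads began at nt 11, 7, 12 and 2. They are shown because the results turn on where the first base falls, and capitals mark the first base, or the bases left of the T run. The nt 2 fragment of C lies at chrM:9809-9859, the nt 7 fragment at chrM:9814-9859 and the nt 11 fragment at chrM:9818-9859.
C nt 2: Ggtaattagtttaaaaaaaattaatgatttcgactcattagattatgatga
C nt 7: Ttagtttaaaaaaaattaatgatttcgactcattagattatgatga
C nt 11: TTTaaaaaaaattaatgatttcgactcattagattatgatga
F nt 11: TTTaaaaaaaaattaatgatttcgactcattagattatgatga
H nt 11: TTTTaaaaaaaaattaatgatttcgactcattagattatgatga
H nt 12: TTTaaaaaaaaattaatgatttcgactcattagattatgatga

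The nt 11 fragment has 42 nt with C mtDNA, 43 with F and 44 with H. It opens with the whole T run. The nt 12 fragment of H keeps 3 T and has the same sequence as the nt 11 fragment of F, so that by sequence alone they cannot be told apart. The deposited table spells these sequences without the extra T of H and the extra A of F and H, and the start was read from the dashes that precede the sequence. This placement was inferred from the lengths of the listed sequences and is not stated by the authors, and the nt 11 and nt 12 values of H below rest on it. Every combination of listed sequence and mtDNA type then matched its own mature mt-TR (1112 checked, 0 without a match).

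Depth differed widely between libraries. The table held 189 to 23805 reads a library, and 10 to 3115 of these were member reads. In 4 libraries the table held under 1000 reads (HC replicate 1, CF replicate 3, CH replicates 1 and 2), and in those the members rested on 35, 10, 10 and 21 reads. Mean table depth was 11127 reads in C, 6339 in F and 2858 in H libraries. Reads with the mature CCA end took on average 16.7% of table reads with C mtDNA, 22.7% with F and 52.9% with H. Depth and the share of CCA-ended reads move with the mtDNA type, and their part in the differences between types was not tested.

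As a share of table reads, the members varied as much within as between groups. In CC they made up 20.3, 16.7 and 7.15% in replicates 1 to 3, and in HC 4.77, 13.3 and 28.8%. In FF the values were 10.4, 9.76 and 13.2%, and in CF 9.92, 14.0 and 5.29%. In HH they were 1.42, 20.2 and 3.91%, and in CH 5.24, 9.05 and 8.84%. The lowest and highest libraries, HH replicate 1 (95% Wilson interval from 1.103 to 1.82%) and HC replicate 3 (27.8 to 29.8%), were both past the depth of 1000 reads. With C mtDNA the mean was 15.2 ± 8.83% (SD, here and below over 6 libraries a type), with F 10.4 ± 3.09% and with H 8.11 ± 6.61%, and the types overlapped. Exact permutation tests gave an adjusted p of 0.307 for C against H, 0.564 for F against H and 0.438 for C against F.

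Among reads that end at the site, the members stood against 1 alternative, the nt 1 fragment. Their share was 43.3, 33.5 and 14.3% in CC, 68.6, 37.0 and 46.1% in HC, and 17.3, 16.5 and 23.7% in FF. It was 41.6, 29.1 and 55.6% in CF, 57.7, 47.3 and 37.0% in HH, and 35.7, 50 and 47.8% in CH. The 3 FF libraries lay below all 3 CF libraries, which have the same mtDNA, and CC replicate 3 was the lowest of all. By mtDNA type, C averaged 40.5 ± 17.8%, F 30.6 ± 15.3% and H 45.9 ± 8.29%. The difference of F from H was -15.3 percentage points, with 5 of 6 F libraries below the H mean, and did not pass (exact permutation test, p = 0.0628, adjusted p = 0.188). Without CF replicate 3, a library of 10 member reads, it was -20.3 points and passed (exact permutation test, adjusted p = 0.0433).

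Position nt 11, the first base of the T run, was the leading start. It held 9339 of the 16142 member reads and was the most abundant member in 17 of 18 libraries, the exception being CH replicate 1, with 10 member reads. Among all sequences of a library, the nt 11 fragment ranked 2 to 4 in 13 libraries, and it ranked 6 in HC replicate 1, 8 in CF replicate 3, 17 in HH replicate 3, 23 in CH replicate 1 and 38 in HH replicate 1. As a share of member reads it was 56.1, 63.6 and 43.8% in CC, 74.3, 67.8 and 78.0% in HC, and 51.7, 48.9 and 57.3% in FF. The share was 72.2, 65.6 and 50% in CF, 38.3, 47.3 and 49.3% in HH, and 20, 71.4 and 40.5% in CH. The 3 HC libraries lay above the 3 CC libraries, while CH spanned almost the whole range.

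As a share of table reads, C libraries averaged 10.02 ± 7.03% at nt 11, F libraries 6.12 ± 2.33% and H libraries 3.85 ± 3.52%. The highest single value was 22.4% in HC replicate 3 and the lowest 0.543% in HH replicate 1. As a share of member reads the averages were 63.9 ± 12.5% for C, 57.6 ± 9.43% for F and 44.5 ± 16.8% for H. The difference of C from H was 19.5 points and that of F from H 13.1 points. The H mean was exceeded by 5 of 6 C libraries and 6 of 6 F libraries. Neither passed (exact permutation tests, adjusted p = 0.188 and 0.306), although both passed without CH replicate 2 (24.9 and 18.5 points, adjusted p = 0.0390 for each). With the T run counted as a whole, the direction turned, as given below.

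The other starts held fewer reads in all. Over all libraries, nt 7 held 1888 member reads (11.7%), nt 12 held 1414 (8.76%) and nt 2 held 1000 (6.20%). All starts other than nt 2, 7, 11 and 12 together held 2501 reads, or 15.5% of member reads. Among these, nt 4 held 497 reads, nt 8 held 360, nt 5 held 345, nt 10 held 284, nt 6 held 242, nt 3 held 236, nt 13 held 228 and nt 9 held 188. Position nt 14, listable in F and H, held 62 reads, and nt 15, listable in H alone, held 59 reads, from 4 of the 6 H libraries.

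The start at nt 2 lacks 1 base of the predominant fragment. It held 124, 160 and 217 reads in CC, 0, 7 and 56 in HC, and 146, 135 and 61 in FF. In CF there were 8, 18 and 0 reads, in HH 5, 49 and 10, and in CH 1, 0 and 3. Set against nt 1 at the same end, nt 2 made up 2.38% of the pooled nt 1 and nt 2 reads in C (564 against 23125), 2.08% in F (368 against 17323) and 3.24% in H (68 against 2029). Another abundant nt 1 fragment of mt-TR lacks the last 28 nt, and at its end nt 2 starts made up 1.95, 1.93 and 2.80% of the nt 1 and nt 2 reads for C, F and H. These ratios, chosen after the data were seen, lay between 1.93 and 3.24% at both ends and in all types. In single libraries of at least 1000 reads the site-ended ratio ran from 1.32 to 10.2%, the highest in HH replicate 1, where 5 reads began at nt 2.

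Position nt 7 is the last base of the 5′ strand of the acceptor stem, which by complementarity spans nt 1 to 7. Its share of member reads was 15.4, 11.5 and 14.0% in CC, 8.57, 11.7 and 6.64% in HC, and 14.4, 15.7 and 12.4% in FF. It was 10.6, 10.3 and 10% in CF, 10, 4.73 and 4.29% in HH, and 0, 0 and 4.88% in CH. The H libraries were low, 5 of them below every C and F library, and HH replicate 1, with 6 reads at nt 7, was not. The 0 of CH replicates 1 and 2 allows up to 30% and 14.3% of member reads, since 3 reads is the limit that a count of 0 allows.

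The nt 7 share averaged 11.3 ± 3.27% with C mtDNA, 12.2 ± 2.38% with F and 3.98 ± 3.72% with H. It was 7.33 points higher for C than for H (p = 0.00649 by exact permutation, 0.0390 after adjustment). The excess of F over H was 8.23 points (p = 0.00433 by exact permutation, 0.0390 after adjustment), and 6 of 6 libraries lay above the H mean in both comparisons. C and F differed by -0.91 points, less than the spread within either type (adjusted p = 0.591 by exact permutation). In wild-type strains alone the means were 13.6% in CC, 14.2% in FF and 6.34% in HH, and in the MNX strains 8.97% in HC, 10.3% in CF and 1.63% in CH. The calls were not stable to the choice of libraries. With 1 library left out, C against H passed without HC replicate 3, HH replicate 1 or CH replicate 2 and in none of the other 9 cases (adjusted p up to 0.0909, differences from 6.51 to 8.53 points). F against H lost the call without HH replicate 2, HH replicate 3, CH replicate 1 or CH replicate 3 (exact permutation test, adjusted p = 0.0519 each). In the 14 libraries of at least 1000 reads the differences were 5.88 and 6.68 points (exact permutation tests, adjusted p = 0.114 and 0.0952).

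At nt 12, as placed here, the types differed in the other direction. In C and F this start keeps 2 T, in H it keeps 3. Its share of member reads was 7.67, 5.66 and 6.05% in CC, 11.4, 2.44 and 5.68% in HC, 5.24, 6.08 and 7.16% in FF, and 3.33, 7.25 and 0% in CF. In HH it was 26.7, 30.5 and 19.3%, and in CH 50, 19.05 and 31.7%. All 6 H libraries lay above all 12 C and F libraries, and the lowest of them, CH replicate 2, rested on 4 reads (95% Wilson interval from 7.67 to 40.001%). In the deepest H library, HH replicate 2, 406 of 1333 member reads began at nt 12 (95% Wilson interval from 28.05 to 32.98%).

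The mean nt 12 share was 29.5 ± 11.4% in H, 6.49 ± 2.96% in C and 4.84 ± 2.78% in F. The differences of -23.0 points (C against H) and -24.7 points (F against H) each had an exact permutation p of 0.00216, the smallest that 6 libraries against 6 can give. C and F differed by 1.65 points (exact permutation test, p = 0.364). This measure was chosen after the start profiles had been seen, so its p-values are not those of a test set beforehand. In the 14 libraries of at least 1000 reads the differences were -21.5 and -21.2 points, with an exact permutation p of 0.00794 each.

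In the H libraries, reads at nt 12 thus stood beside those at nt 11 rather than far below them. Of the site-ended reads that began at nt 11 or nt 12, nt 12 took 40.8 ± 17.3% in H, 9.32 ± 3.83% in C and 7.62 ± 4.48% in F. Counted by the number of T that remain before the A run, a start with 3 T held 88.9% of the T-run member reads in C and 88.5% in F, pooled over libraries. In H, a start with 4 T held 58.2% and a start with 3 T held 37.0%. At the CCA end the same ratio of nt 12 to nt 11 plus nt 12 was higher in every type, 57.2 ± 11.6% in H, 39.1 ± 7.70% in C and 37.1 ± 11.8% in F. An nt 11 read that had lost 1 T would be listed at nt 12 in any type, so the table does not separate these.

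Counting every start in the T run removed the deficit of nt 11 in H. The run has 4 starts in H and 3 in C and F, and it includes nt 12, which was higher in H. The change of direction is therefore not a result apart from that of nt 12. As for nt 12, the p-values are not those of a measure chosen beforehand. Of member reads, the T run held 79.9 ± 8.43% in H, 72.1 ± 13.3% in C and 64.9 ± 8.25% in F. H was then the highest type. C differed from it by -7.79 points (p = 0.260 by exact permutation, 0.416 after adjustment). F differed from H by -14.999 points (p = 0.0130 by exact permutation, 0.0519 after adjustment), and neither passed. Starts upstream of the T run, from nt 2 to 10, made up the rest of the listable members in C, and starts in the A run, nt 14 in F and nt 15 in H, averaged 0.64% in F and 3.48% in H.

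To ask whether the nt 11 start goes with the site or occurs whatever the 3′ end, starts were compared with those of reads that carry the mature CCA end. Within each class the share of each start was taken over a window from nt 5 to the end of the T run, where both classes could be listed. At nt 11 it averaged 60.9 ± 14.5% for site-ended and 23.5 ± 9.01% for CCA-ended reads (SD, n = 18 libraries). The difference of 37.4 points was positive in 18 of 18 libraries, with a permutation p of 1e-05, the smallest that 100000 resamples can give. By type, nt 11 took 69.1% of site-ended and 28.3% of CCA-ended starts in C, 64.9 and 26.9% in F, and 48.8 and 15.4% in H. Each type had 6 of 6 libraries higher at the site (exact permutation p = 0.0312, the smallest 6 pairs can give). The nt 11 start was already known as the leading start of site-ended reads in these same libraries. The p-values of this comparison, also for the T run below, are therefore not those of a start chosen beforehand.

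The 2 classes differed in the shape of the profile. CCA-ended starts spread over the window, with averages over all libraries of 7.41% at nt 8, 6.61% at nt 9, 9.87% at nt 10, 17.9% at nt 12 and 15.5% at nt 13. For site-ended reads the same positions averaged 2.68, 0.95, 2.01, 15.4 and 2.40%. The nt 12 values differed by type. In C the site-ended share there was 7.03% against 17.4% for CCA-ended reads, in F 5.61% against 15.1%, and in H 33.6% against 21.2%. At nt 12 it was the higher share in 0 of 6 C, 0 of 6 F and 5 of 6 H libraries. The H mean includes 62.5% in CH replicate 1, from 8 site-ended reads in the window. At nt 7 the site-ended average exceeded the CCA-ended one in C (12.5 against 8.35%) and F (13.9 against 9.81%) and not in H (4.42 against 5.25%). By library it was higher in 4 of 6 C, 6 of 6 F and 2 of 6 H libraries, and within C in 1 of 3 HC libraries. For the T run as a whole the averages were 80.0 and 62.7%, a difference of 17.3 points that was positive in 18 of 18 libraries (permutation p = 1e-05). Reads of the same start are longer at the CCA end, so the 3′ end and the read length cannot be told apart here.

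Over all libraries together, 82.0% of the reads that began at nt 11 ended at the site, 10.1% at the CCA end and 1.81% 1 nt before it, and a further 2.64% ended within 2 nt of the site. This pooled value is carried by the deep libraries. It counts listed reads alone, which have at least 40 nt. With C mtDNA an nt 11 read has 42 nt at the site. Most ends upstream of the site could therefore not be listed for this start. In 4 libraries more nt 11 reads ended with the CCA than at the site, namely HH replicate 1 (163 against 23), CF replicate 3 (14 against 5), HH replicate 3 (72 against 69) and CH replicate 1 (3 against 2).

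Setting the CCA end and its neighbours aside, so that only ends 4 to 21 nt before the mature end counted, the site took a median of 94.4% of nt 11 reads over the 18 libraries. The value was 40% in CH replicate 1, 45.1% in HH replicate 1, 59.1% in HC replicate 1, 71.4% in CF replicate 3, 79.3% in HH replicate 3 and 79.05% in CH replicate 3, and at least 87.2% in the others. For the nt 1 fragment, which defined the site, the median was 85.1%, with 17.96% in HH replicate 1 and 46.6% in HH replicate 3. Ends further upstream than this range, such as the end that lacks the last 28 nt, were left out for every start. Pooled by type, the site took 95.3% of nt 11 reads in C, 95.2% in F and 89.2% in H. At nt 7 the pooled shares were 93.1, 91.4 and 81.7%, at nt 12 88.8, 90.4 and 90.5%, and at nt 2 89.8, 86.4 and 63.6%. By these pooled shares H was the lowest type at nt 2, 7 and 11, and not at nt 12. HH replicate 2 held 422 of the 578 H reads counted at nt 12, with 96.2% at the site. The median over libraries at nt 12 was lowest in H, at 84.5% against 89.1% in C and 92.5% in F. Pooled at nt 4, H was not the lowest, with 86.5% against 86.1% in F and 89.0% in C. The pooled H values rested on 107 reads at nt 2 and 104 at nt 7, and single H libraries ran from 25 to 100% at nt 2. The rule requires the exact end, and just outside it, 225 reads that start past nt 1 ended 1 nt before the site and 199 ended 1 nt after it, against 16142 at the site. At its other limit, nt 1 held 42477 reads and nt 2 held 1000.

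Fragment by fragment, edgeR compared reads relative to the table total, over 68 mt-TR fragments that passed a filter on low counts. Of the 14 start positions, 10 passed (nt 2, 4 to 8 and 10 to 13). Positions nt 3 and 9 reached the share of table reads that the filter asks for in too few libraries. Total reads did not decide this, since nt 13 passed with 228 reads and nt 3 did not with 236. Positions nt 14 and 15 cannot be listed in all types. Since low members pass only where some group is high, the members tested are not all members. At nt 4 to 8 too few H libraries had enough reads to pass the filter, so C and F libraries carried these members through it. The highest H library had 0.227% of table reads at nt 5, 0.0863% at nt 6 and 0.216% at nt 8. Positive fold changes of nt 4 to 8 against H therefore follow in part from the filter. So do the member medians and the counts of members called higher, here and in the fits below. For C against H, 24 of 68 fragments (35.3%) were called at an adjusted p under 0.05, 2 of them higher in C and 22 lower. Both that were higher were members, nt 7 and nt 6. The median of all fragments was -0.70 on the log2 scale, against 1.33 for the 10 members tested. The nt 7 fragment was higher in C, by 2.23 ± 0.63 (SE) on the log2 scale (adjusted p = 0.00675 in edgeR). For nt 6, with 0 to 51 reads a library and 8 reads over the 6 H libraries, it was 2.15 ± 0.79 (edgeR adjusted p = 0.0299). The nt 6 fragment passed the filter only through C and F libraries, where it is high, so this call is not independent of the filter.

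For F against H, 28 fragments (41.2%) were called, 3 higher in F and 25 lower, with a median of -0.93 for all fragments and 1.06 for the members. The nt 7 fragment was higher in F (1.90 ± 0.63, edgeR adjusted p = 0.0167), and nt 12 was lower in F (-1.94 ± 0.65, edgeR adjusted p = 0.0167). Both comparisons use the same H libraries. For nt 12 in C against H the value was -1.39 ± 0.62 (edgeR adjusted p = 0.0737). For nt 11 it was 1.36 ± 0.65 in C against H and 0.68 ± 0.64 in F against H (edgeR adjusted p = 0.0906 and 0.403). Leaving out 1 library changed several of these calls. The nt 7 fragment passed in 12 of 12 such fits in both comparisons. Its log2 fold changes ran from 2.01 to 5.89 for C against H and from 1.70 to 5.56 for F against H. All 10 CH reads at nt 7 came from CH replicate 3. Without that library CH held 0 reads there, and the fold change has no settled size. The nt 6 fragment passed in 5 of 12 for C against H, without CC replicate 1, CC replicate 3, HC replicate 1, HH replicate 2 or HH replicate 3, and in the others the edgeR adjusted p was at most 0.109. The nt 12 fragment in F against H lost the call without HH replicate 2 (-0.89, edgeR adjusted p = 0.217), and in C against H it gained one without HC replicate 3 (-1.92), HH replicate 1 (-1.64) or HH replicate 3 (-1.60). The nt 11 fragment passed for C against H without HC replicate 1 (1.57, edgeR adjusted p = 0.0263) and without HH replicate 2 (2.21, edgeR adjusted p = 0.00597), and for F against H without HH replicate 2 (1.54, edgeR adjusted p = 0.0375). In libraries of at least 1000 reads, neither nt 7 nor nt 12 passed for F against H (1.68 and -1.93, edgeR adjusted p = 0.0829 and 0.0644).

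The nt 1 fragment that defined the site had 1.41 ± 0.70 and 1.57 ± 0.70 for C and F against H. The remaining members tested did not pass in either comparison with all libraries. For C against H the log2 fold changes were 1.32 at nt 2, 1.18 at nt 4, 2.08 at nt 5, 1.33 at nt 8, 0.23 at nt 10 and -0.24 at nt 13. For F against H they were 1.52 at nt 2, 1.18 at nt 4, 1.54 at nt 5, 1.73 at nt 6, 0.94 at nt 8, 0.05 at nt 10 and -1.16 at nt 13. Several passed with 1 library left out. For C against H these were nt 2 (1.81), nt 4 (1.83), nt 5 (3.02) and nt 8 (1.62) without HH replicate 2, nt 2 (1.53), nt 5 (2.22) and nt 8 (1.51) without HC replicate 1, and nt 5 (2.40) without HC replicate 3. For F against H they were nt 2 (2.01), nt 4 (1.84) and nt 5 (2.49) without HH replicate 2, and nt 6 (2.25) without CF replicate 1. Without CH replicate 3, which holds most member reads of CH, the fold changes of nt 4, 5 and 8 in C against H were 4.27, 4.27 and 4.57, and none passed. Over all fits without 1 library, those of nt 5 ran from 1.35 to 4.27, those of nt 8 from 1.08 to 4.57 and those of nt 4 from 0.84 to 4.27.

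These values depend on the scaling, since it moved the median of all fragments in C against H from -0.70 with the table total to 0.26 with TMM and 1.09 with DESeq2. With TMM, 7 of the 10 members were called higher in C, where 18 of all 68 fragments were (26.5%), and 6 were called higher in F, where 16 were (23.5%). With DESeq2, 8 members were called higher in C among 33 of 68 fragments (48.5%), and 7 in F among 28 (41.2%), and only 4 and 3 fragments were called lower. Under neither scaling was nt 12 called. Its log2 fold change was -0.28 and -0.85 with TMM (C and F against H) and 0.46 and -0.04 with DESeq2, so its direction in C against H turned, although it stayed below the median of all fragments. HH replicate 2 holds 1333 of the 1769 member reads of H. Without it, 76 fragments and 11 members were tested, and 38 fragments were called for C against H and 40 for F against H. Higher in C were 12 fragments (15.8%), among them 8 members, and higher in F were 10 (13.2%), among them 6 members. Without HC replicate 1, 78 fragments and 12 members were tested and 42 fragments were called for C against H, of which 10 were higher in C (12.8%), among them 6 members.

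No member was called between C and F mtDNA or between nuclear genomes. Between C and F, 0 of 68 fragments (0%) were called by edgeR, with 3 at an unadjusted p under 0.05, and 0 by DESeq2. The log2 fold changes of members ran from -0.20 at nt 2 to 0.92 at nt 13. For HC against CC, edgeR called 0 (0%), although 13 passed an unadjusted p of 0.05, while DESeq2 called 2. For HH against CH, edgeR called 0 (0%) with 0 at an unadjusted p under 0.05, and DESeq2 called 1. For FF against CF, 23 fragments (33.8%) were called, all lower in FF, and 0 of the 10 members were among them. The direction depends on the scaling. DESeq2 called 7 fragments, all higher in FF, and TMM called 4, of which 1 was higher and 3 lower, and the median of all fragments turned from -1.19 with the table total to 0.96 with DESeq2. No member was called under either. With the table total, the count fell to 0 without FF replicate 1 and to 1 without CF replicate 1, and was 9, 15 and 10 without FF replicate 2, FF replicate 3 and CF replicate 3.

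The shares of the members were also compared between strains of the same mtDNA, where 3 libraries against 3 cannot give an exact permutation p below 0.1. FF and CF did not overlap in the share of site-ended reads (19.2 ± 3.92 against 42.1 ± 13.2%, SD, n = 3, exact permutation p = 0.1) or in the nt 7 share (14.2 ± 1.69 against 10.3 ± 0.28%, exact permutation p = 0.1). HC and CC did not overlap in the nt 11 share (73.4 ± 5.16 against 54.5 ± 9.99%, exact permutation p = 0.1). The other 9 comparisons overlapped, and after adjustment over 12 comparisons the lowest p was 0.4. In the share of table reads, HC and CC differed by 0.87 points, HH and CH by 0.80 and FF and CF by 1.39, each far within the spread between libraries. Whether a change of nucleus from C to H had a different effect on C and on H mtDNA was tested by permutation within mtDNA type. For the nt 7 share the change was -4.67 points on C mtDNA and 4.71 on H mtDNA (exact permutation test, p = 0.03, adjusted p = 0.12). This change goes from wild type to MNX on C mtDNA, and from MNX to wild type on H mtDNA. The wild-type strain was higher on both, and FF was higher than CF by 3.88 points. The interaction therefore cannot be told apart from wild type against MNX. None of the 4 measures passed. Wild-type and MNX libraries differed in depth, at 18859 against 3394 reads on average for C mtDNA, 11224 against 1455 for F and 4802 against 914 for H, so nucleus and depth cannot be told apart in these comparisons.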

How the data were processed

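Deposited values were counts of unique mt-TR sequences in 18 libraries, not normalised. Per their methods, the authors extracted unique molecular identifiers (UMIs), trimmed reads, mapped each library to its own mature mt-TR without gaps or mismatches, collapsed UMIs and dropped sequences that mapped elsewhere in mm10. The submitters' processing notes name FastQC 0.12.1, UMI-tools 1.1.6, cutadapt 5.0, BWA 0.7.18 and Bowtie 1.3.1. A mapper without mismatches keeps a read that spans a whole run only if that run has the reference length. A read that begins in the T run can have lost T and still match, at a later start. Listed reads were 40 to 69 nt, so members of fewer nt were not analysed here, nor was mt-TR of full length. All columns were matched to a sample (0 unmatched). The C sequence came from GENCODE M21, and the F and H sequences came from a supplementary table of the study.

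Each listed sequence was placed on the mature mt-TR of the library's mtDNA type. Shares of reads per library were compared between types, nuclei and their interaction by two-sided exact permutation tests, with Benjamini-Hochberg adjustment over 12 tests (4 for the interaction). The window comparison used sign flips within libraries. Fragments were tested in edgeR 4.0.16 (R 4.3.3, limma 3.58.1) by the quasi-likelihood test, with all 6 groups in 1 fit, the table total as library size, filterByExpr and Benjamini-Hochberg adjustment over 68 fragments, and standard errors were derived from the F statistic. Fragments were matched across types with gaps at the right of the runs, which sets nt 11 of H beside nt 11 of C and F. Table totals are a length class and not all mt-TR reads. Every start was described, and fold changes were given for every member that passed the filter. TMM and DESeq2 1.42.0, no filter, gaps at the left, a replicate block, libraries of at least 1000 reads and leaving out each library were alternatives. Python 3.11.15 with numpy 2.4.6, pandas 2.3.3 and scipy 1.17.1 was used elsewhere.

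Intervals for single libraries are 95% Wilson intervals, and a count of 0 allows up to 3 reads. Both cover counting error only. Replicates were compared by chi-square tests over fragments. CH replicates 1 and 2, with 191 and 232 reads, differed least (chi-square test over fragments, p = 0.0893), and none were merged. CC replicates 1 and 3 had the largest chi-square, 5512.77 on 111 degrees of freedom. Outside CH every pair of replicates differed beyond counting error (chi-square tests over fragments, p at most 1.15e-06). On simulated data, edgeR recovered 100% of 10 fragments changed by 4 on the log2 scale among 68 in C against H and called 0.517% of the others. The largest member fold change with all libraries was 2.23 (nt 7, C against H), and recovery at that size was not simulated. Nor did the simulation include a shift in the share of CCA-ended reads between types. The members, measures and lists were chosen with earlier results of these data known.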

Additional observations from a re-analysis of the deposited data

Results flagged for a closer look

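Of 18 checks for a library far from the others of its mtDNA type, over 6 measures and 3 types, 1 was met, where chance gives about 1 in 20. HH replicate 2 held 1333 member reads, while the other H libraries held 10 to 205. It was also the deepest H library, with 6596 table reads, and its member share of table reads (20.2%) did not meet the same criterion. Comparisons with H that change without this library are given beside the results.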

How the results depend on the processing

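Leaving out libraries of under 1000 reads gave differences in the nt 7 share of 5.88 points (C against H) and 6.68 (F against H), and neither passed. With 1 library left out the ranges were 6.51 to 8.53 and 7.44 to 9.44 points. Across same-numbered libraries of different groups, deviations had a median correlation of 0.0453 over 45 pairs, with 19 over 0.1, and of 0.0055 over 90 pairs with different numbers, so the labels' numbers were not taken to pair libraries. With the replicate number as a block, the nt 7 differences of 7.33 and 8.23 points no longer passed (exact permutation tests, adjusted p = 0.111 each), and the count for FF against CF was 13. The T run in place of nt 11 gave -7.79 and -15.0 points for C and F against H, and the cause was not tested. Leaving out 1 library, the nt 11 difference ran from 14.6 to 24.9 points (C against H) and from 8.26 to 18.5 (F against H), the share of site-ended reads in F against H from -20.3 to -12.5, and the nt 7 difference of C from F from -1.72 to 0.026. The nt 12 difference of C from F was -0.31 points at 1000 reads or more. Between nuclei, leaving out 1 library moved the table share from -5.71 to 6.28 points (HC against CC), -5.05 to 4.35 (HH against CH) and -0.83 to 3.53 (FF against CF), and for HH against CH the site-ended share from -2.32 to 8.01 and the nt 11 share from -11.0 to 14.7, so these have no settled direction.

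With TMM, 33 and 29 fragments were called for C and F against H (18 higher and 15 lower, and 16 and 13), 1 for HC against CC and 4 for FF against CF. With DESeq2, 37 and 31 were called (33 higher and 4 lower, and 28 and 3), 2 for HC against CC, 1 for HH against CH and 7 for FF against CF, all higher. FF against CF had 12 calls with no filter and 14 at 1000 reads or more, and gaps at the left gave 1 call for C against F. With 1 library left out, counts ran from 21 to 42 (C against H), 0 to 1 (HC against CC) and 0 to 28 (FF against CF). With gaps at the left, which set nt 12 of H beside nt 11 of C and F, that fragment had a log2 fold change of 2.03 in C (edgeR adjusted p = 0.0135) and 1.35 in F (edgeR adjusted p = 0.0863). The nt 11 fragment passed for C against H with the replicate block (1.67, edgeR adjusted p = 0.0376). With no filter, nt 6 in C against H (edgeR adjusted p = 0.0910) and nt 7 in F against H (0.0632) did not pass. Fold changes near 0 turned. For nt 13 in C against H the value was 0.84 with TMM, 1.65 with DESeq2, 0.019 with the replicate block and -0.59 to 0.49 with 1 library left out, and in F against H 0.69 with DESeq2. For nt 10 it was -0.028 in F against H with the block, and -0.51 to 1.29 (C against H) and -0.39 to 1.099 (F against H) with 1 library left out. For nt 12 in C against H it was 0.46 with DESeq2.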
